A study of Mus musculus with 12 samples.

Results

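Collagen genes were described in RNA-sequencing of the mouse submandibular gland (SMG). They were taken as the protein-coding genes of the count table whose Gencode mouse symbol consists of Col, a type number, the letter a and a chain number. This rule gave 44 of the 21599 protein-coding genes, in a table of 56065 genes, and they were divided into 11 fibrillar, 10 basement membrane and 23 minor collagens. Counts were high enough to test 37 of the 44, which were 9 fibrillar, 10 basement membrane and 18 minor genes. The other 7 (*Col2a1*, *Col6a4*, *Col9a1*, *Col10a1*, *Col19a1*, *Col22a1* and *Col24a1*) had at most 10 counts in any library and were tested only in some of the alternative fits.

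The 12 libraries came from SMGs of mice aged 8 weeks, with 3 biological replicates in each of 4 groups: C57BL/6J wild type of each sex, and mice of each sex in which *Pou2f3* is knocked out on the same background (C57BL/6J-*Pou2f3*-/-, knockout from here on). *Pou2f3* encodes the factor that tuft cells (TCs), rare chemosensory cells of the ducts, need to form, and the comparison of the genotypes asks how the gland differs without them. The knockout is global, so TCs are lost in other organs too, and the authors name possible systemic effects as a limit. RNA was extracted from gland tissue, so every value is a mean over acini, ducts, vessels, nerves and stroma. No source used here gave a litter or a library batch.

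Collagens are proteins of 3 chains that wind into a triple helix. Fibrillar collagens (types I, II, III, V, XI, XXIV and XXVII) assemble into the fibrils that give connective tissue its strength, and in a gland they are made mainly by fibroblasts. Basement membrane collagens comprise the type IV network beneath epithelia and around vessels and the proteins that anchor it or bind to it (types VII, XV, XVII and XVIII). The minor collagens comprise the beaded filaments of type VI, the fibril-associated collagens with interrupted triple helices (FACITs), the short-chain network formers, the transmembrane collagens and a few others. Many of the type IV chains are encoded in pairs that start head to head.

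Total counts ranged from 47032175 to 67882207 per library, and the 20 most abundant genes held 51.9% to 79.3% of them. Collagen genes held 0.0633% to 0.0886% of the protein-coding counts in wild-type females, 0.117% to 0.139% in knockout females, 0.102% to 0.138% among wild-type males and 0.128% to 0.214% among knockout males. A share depends on every other gene of its library, so levels of collagen genes are given as normalized counts, that is, counts divided by a TMM-adjusted library size and brought to the mean size of the libraries. In bulk tissue, fewer cells of a type and less RNA per cell cannot be told apart. Before normalization, *Xist* was at 24032 to 52649 counts in all 6 female libraries and at 3 or fewer in all 6 male libraries, and *Ddx3y* was at 0 in females and at 1761 to 2196 counts in males. *Pou2f3* itself had 0 to 10 such counts in every library, wild type included, so its counts do not check the genotype labels.

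The 3 fibrillar genes *Col3a1*, *Col1a2* and *Col1a1*, which encode the chains of types III and I, led the collagens together with *Col4a1*. Per kb of the canonical transcript, *Col3a1* averaged 1507 normalized counts over the 12 libraries (864 to 2983), *Col1a2* averaged 912 (589 to 1662) and *Col1a1* averaged 750.3 (417 to 1385). Of the basement membrane genes, *Col4a1* averaged 840.4 (542 to 1194), *Col4a2* 458 (281 to 619) and *Col15a1* 431 (314 to 660) on the same scale. The minor collagens were led by the 3 classical type VI chains, *Col6a1* at 277 (183 to 489), *Col6a3* at 252 (157 to 449.7) and *Col6a2* at 226 (166 to 390). The ranges of neighbours in these orders overlapped between libraries. By its mean over the 12 libraries, *Col5a3* stood at rank 17 with 77.5 (30.0 to 147), a mean over groups that differed. Its group means were 43.3 in wild-type and 130 in knockout females, and 30.4 in wild-type and 106.5 in knockout males. The 7 genes with at most 10 counts averaged between 0.0457 and 0.5 per kb. In counts, fibrillar genes made up 40.2% to 57.3% of all collagen counts of a library, basement membrane genes 26.0% to 43.3% and minor genes 14.1% to 18.4%.

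**Figure D1:**
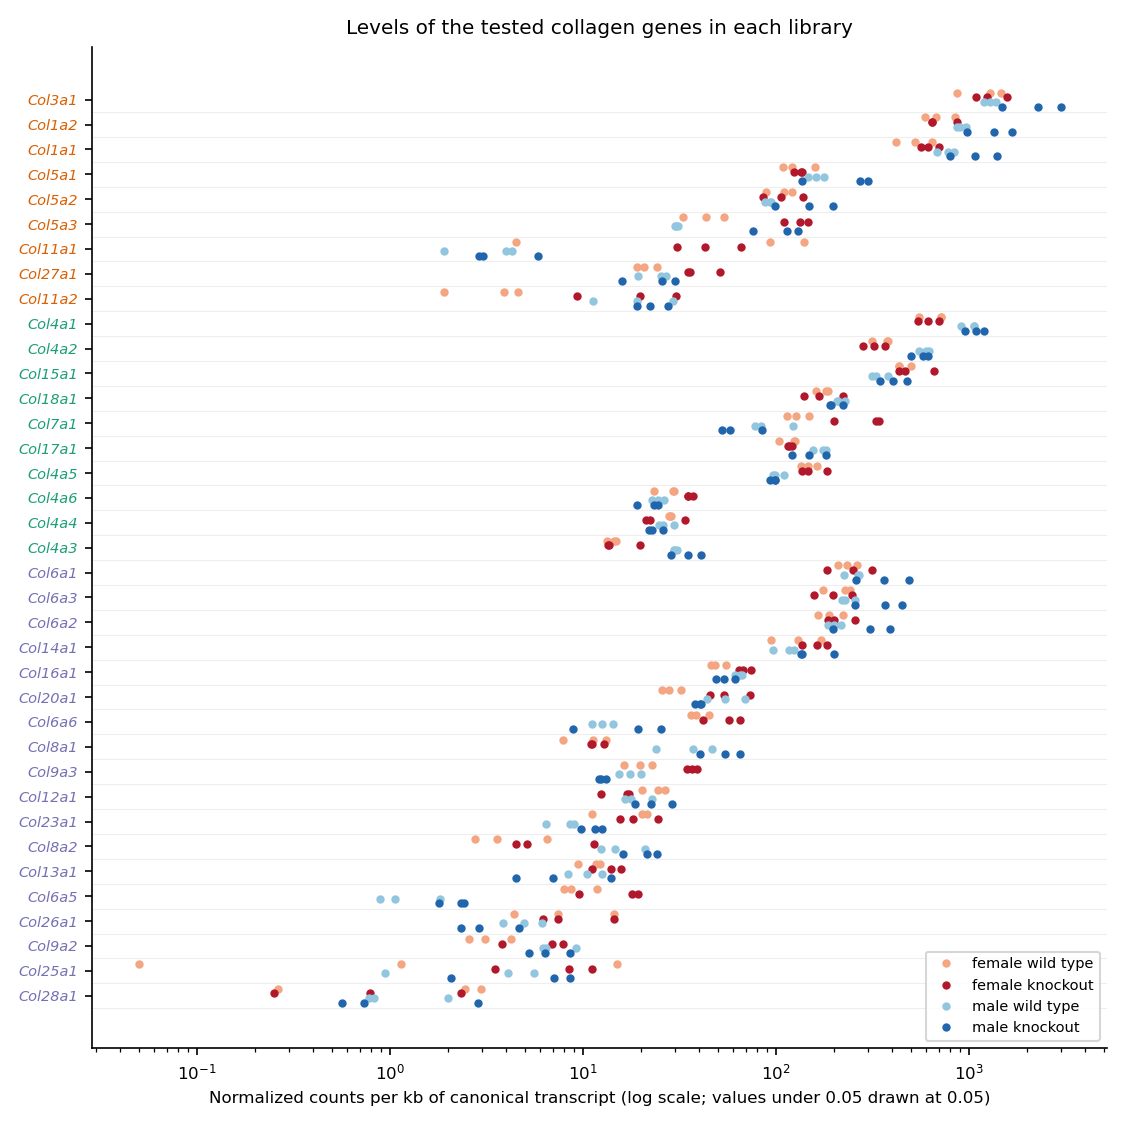
Normalized counts per kb of canonical transcript (log scale) for the 37 tested collagen genes, with 1 point per library coloured by group and gene names coloured by class (orange, fibrillar; green, basement membrane; purple, minor). *Col3a1* lay highest, between 864 and 2983, and the male points of *Col6a5*, *Col6a6* and *Col4a5* lie left of the female ones. Values under 0.05 are drawn at 0.05.

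In knockout females, 8 of the 37 tested collagen genes differed from wild type, 7 higher and 1 lower, at a Benjamini-Hochberg adjusted p under 0.05 from the quasi-likelihood test of edgeR on all 17893 genes. Over all genes the share called was 36.9% (17.6% higher and 19.3% lower), and whether the collagen share differs from it was not tested. The higher genes were *Col5a3*, *Col11a2* and *Col27a1* (fibrillar), *Col7a1* (basement membrane) and *Col9a3*, *Col16a1* and *Col20a1* (FACITs), and the lower gene was the FACIT *Col12a1*. With upper-quartile normalization or protein-coding library sizes the split was 8 higher and 0 lower, and with the authors' factors 6 and 0. The share of all genes called in those fits is not given. The median log2 fold change over all genes was 0.03 in the main fit. It was 0.13 with upper-quartile normalization and 0.095 with protein-coding library sizes. In knockout males, *Col5a3* was the 1 gene called, against a background of 0.235%, while 13 of the 37 had an unadjusted p under 0.05, as did 2056 of the 17893 genes tested. The difference between the effects of the sexes (the interaction, female effect minus male effect) was called for 6 genes, 5 positive and 1 negative, against 25.7% of all genes. That split was 3 and 3 with the authors' factors and 6 and 0 with upper-quartile normalization, again without a share of all genes. Without male knockout replicate 1, 12 genes were called in the interaction, 5 positive and 7 negative, and the share of all genes in that fit is not given.

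The medians of the classes are given as a description, with no test between them. In females the median log2 fold change was 0.11 for the 9 fibrillar genes, 0.04 for the 10 basement membrane genes and 0.29 for the 18 minor genes, beside 0.03 over all genes. In males the medians were 0.55, −0.08 and 0.42, beside −0.04 over all genes. The libraries of the genotypes did not overlap for 9 collagen genes in females, beside 49.3% of all genes, and for 10 in males, beside 14.5%.

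**Figure D2:**
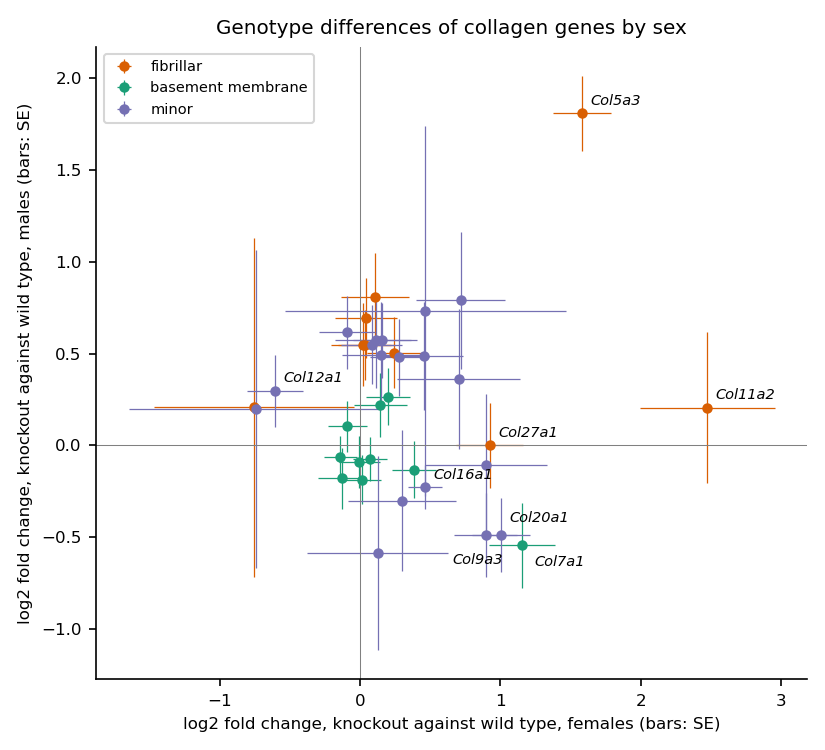
Log2 fold change of knockout against wild type in females (horizontal) and in males (vertical) for the 37 tested collagen genes, with SE bars and colours by class; the 8 genes called in females are named. *Col5a3* is the gene at the upper right (1.58 in females, 1.81 in males), while *Col7a1*, *Col9a3* and *Col20a1* lie to the lower right, above 0 in females and below 0 in males, where they did not pass the test.

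*Col5a3* encodes the α3 chain of type V collagen, a fibrillar type that sits inside type I fibrils and takes part in setting their width. The gene lies on the minus strand of chromosome 9 (GRCm39, chr9:20681337-20726418). Its lower coordinate is 22.35 Mb from that of *Pou2f3* on the same chromosome. Of the other collagen genes called between the genotypes, *Col7a1* and *Col12a1* also lie on chromosome 9. The normalized counts of *Col5a3* were 330.5, 268 and 203 in wild-type females and 679, 908 and 824 in knockout females. In males they were 185, 187 and 191 in wild type and 471, 802 and 703 in knockout. Every knockout library of both sexes lay above every wild-type library. The log2 fold change was 1.58 ± 0.20 (SE, n = 3 per group) in females, or 2.99-fold (adjusted p = 0.00028), and 1.81 ± 0.21 in males, or 3.50-fold (adjusted p = 0.0024). The difference between the sexes was −0.23 ± 0.28 (adjusted p = 0.58). Each sex kept its call when any 1 library was left out, with values of 1.39 to 1.70 in females and 1.65 to 2.00 in males.

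The other type V chains had other values. *Col5a1* and *Col5a2* encode the α1 and α2 chains, which are found in type V molecules of most tissues. In females, *Col5a1* was at 1343, 1026 and 916 in wild type and 1050, 1153 and 1139 in knockout, a log2 fold change of 0.02 ± 0.23 (adjusted p = 0.95). *Col5a2* was at 912, 668 and 833 against 648, 1037 and 799, or 0.04 ± 0.22 (adjusted p = 0.90). The libraries of the genotypes overlapped for both chains in females. In males, *Col5a1* was at 1233, 1487 and 1365 in wild type and 1156, 2531 and 2288 in knockout (0.55 ± 0.23, adjusted p = 0.37), and *Col5a2* at 658, 709 and 704 against 749.9, 1481 and 1117 (0.69 ± 0.22, adjusted p = 0.22). In males the *Col5a1* libraries overlapped and the *Col5a2* libraries did not, and male knockout replicate 1 was the lowest of its group for all 3 chains. Without the low-count filter, edgeR called *Col5a2* in males (0.69, adjusted p = 0.037).

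A ratio of chains within a library does not depend on its size factor. The ratio of *Col5a3* to *Col5a1* counts was 0.246, 0.262 and 0.223 in wild-type females, 0.647, 0.788 and 0.724 in knockout females, 0.151, 0.126 and 0.140 among wild-type males, and 0.408, 0.317 and 0.307 among knockout males. The ranges of the 4 groups did not overlap, and knockout lay above wild type in each sex and females above males in each genotype. The log2 ratio was 1.43 higher in knockout (1.56 in females and 1.30 in males) by an exact two-sided permutation test that exchanged genotype labels within each sex (p = 0.005, the smallest its 400 arrangements can give; Benjamini-Hochberg adjusted p = 0.04 over 16 ratio tests). It was 0.94 lower in males than in females, by −0.81 in wild type and −1.07 in knockout (exact permutation p = 0.005, adjusted p = 0.04).

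**Figure D3:**
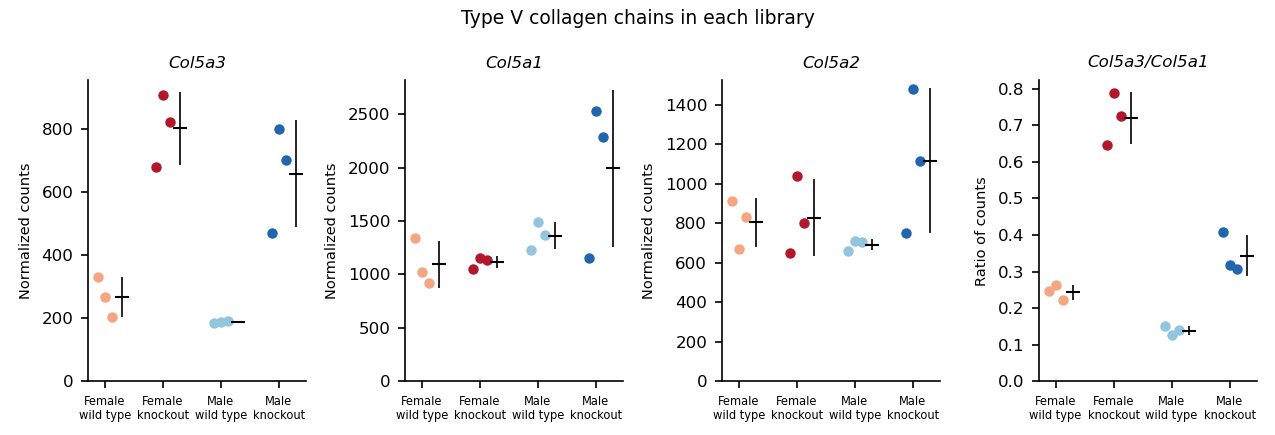
Normalized counts of the 3 type V chains and the ratio of *Col5a3* to *Col5a1* counts, with 1 point per library and the mean ± SD of each group beside it (n = 3 per group). *Col5a3* was at 203 to 330.5 and 185 to 191 in the wild-type groups and at 679 to 908 and 471 to 802 in the knockout groups, whereas the points of *Col5a1* overlap between genotypes in both sexes and those of *Col5a2* overlap in females.

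The 250 bases before the start of the canonical transcript are shown for the 3 type V chains, since the ratio of *Col5a3* to *Col5a1* counts differed in the knockout. They are given 5′ to 3′ on the strand of the gene, from GRCm39 (*Col5a3*, chr9:20726419-20726668, minus strand; *Col5a1*, chr2:27776147-27776396, plus strand; *Col5a2*, chr1:45542443-45542692, minus strand), and the capitals mark a CCAAT box (CCAAT or its reverse complement ATTGG) or a GC box (GGGCGG or CCGCCC).
Col5a3: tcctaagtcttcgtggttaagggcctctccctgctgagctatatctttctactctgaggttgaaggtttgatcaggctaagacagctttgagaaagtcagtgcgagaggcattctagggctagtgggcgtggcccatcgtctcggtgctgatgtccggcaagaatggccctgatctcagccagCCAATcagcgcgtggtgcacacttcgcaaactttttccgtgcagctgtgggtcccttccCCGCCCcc
Col5a1: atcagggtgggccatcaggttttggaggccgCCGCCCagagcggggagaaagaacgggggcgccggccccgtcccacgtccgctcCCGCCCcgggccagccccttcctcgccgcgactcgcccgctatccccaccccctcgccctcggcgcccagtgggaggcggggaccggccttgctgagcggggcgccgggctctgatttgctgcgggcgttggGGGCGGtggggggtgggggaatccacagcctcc
Col5a2: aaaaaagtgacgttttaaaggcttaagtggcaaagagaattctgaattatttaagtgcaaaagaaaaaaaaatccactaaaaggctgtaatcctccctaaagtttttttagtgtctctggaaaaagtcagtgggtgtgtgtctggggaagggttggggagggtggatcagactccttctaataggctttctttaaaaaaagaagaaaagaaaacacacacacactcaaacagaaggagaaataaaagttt
The *Col5a3* window held 1 CCAAT box and 1 GC box at a GC content of 55.6%. The *Col5a1* window held 3 GC boxes at 75.6% GC, and the *Col5a2* window held neither motif at 36% GC. Over the windows of all 21599 protein-coding genes, 36.4% held a CCAAT box and 36.5% a GC box, and of the 44 collagen windows 15 and 21 did. TATAAA or its reverse complement TTTATA stood in 11.9% of all windows and in 7 of the collagen windows, none of them a type V gene. These matches describe the letters of the windows only.

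Among the other fibrillar collagens, *Col11a2* and *Col27a1* rose in knockout females. *Col11a2* encodes a chain of type XI, a minor partner in fibrils best known from cartilage. It was at 29.2, 24.6 and 12.1 normalized counts in wild-type females and at 192, 59.2 and 125 in knockout females, with every knockout library higher (2.48 ± 0.48, 5.56-fold, adjusted p = 0.0019). In males it was at 187, 71.4 and 120.4 in wild type and 120.3, 175 and 142 in knockout, with overlapping groups (0.21 ± 0.41, adjusted p = 0.90). The interaction was 2.27 ± 0.63 (adjusted p = 0.022), with 1.75 (adjusted p = 0.066) without female knockout replicate 1, 1.93 (0.060) without female wild-type replicate 3 and 1.87 (0.065) without male wild-type replicate 1. With the authors' factors the female difference was 2.40 (adjusted p = 0.071) and the interaction 2.04 (adjusted p = 0.24). Of the 6 listed markers of cartilage and bone, *Acan*, *Matn1*, *Matn3* and *Ibsp* were at 0 or 1 count in every library. Before normalization *Sp7* was at 0 to 7 and *Comp* at 8 to 144 counts. Males were above females in *Comp* by 2.62 in wild type and 2.07 in knockout, and in *Col11a2* by 2.49 and 0.22. *Col2a1*, the main cartilage collagen, was at 0 counts in all female libraries.

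*Col27a1*, a fibrillar collagen with a shorter helix, was at 159, 145 and 184 in wild-type females and at 266, 273 and 388 in knockout females, again without overlap (0.93 ± 0.24, adjusted p = 0.0090). Its call was lost without female knockout replicate 3 (0.68, adjusted p = 0.072) and without female wild-type replicate 2 (0.80, adjusted p = 0.052). In males the difference was 0.00 ± 0.23, and the interaction was 0.93 ± 0.33 (adjusted p = 0.056). This interaction was called under some alternatives, among them protein-coding library sizes (1.00, adjusted p = 0.045) and no low-count filter (0.91, adjusted p = 0.045). It was also called without male knockout replicate 2 (1.12, adjusted p = 0.042) and without male wild-type replicate 2 (1.05, adjusted p = 0.038). *Col11a1*, the partner chain of *Col11a2*, was at 34.9, 717 and 1076 in wild-type females and 329, 507 and 238 in knockout females. It had no call (−0.76 ± 0.71, adjusted p = 0.43), and female wild-type replicate 1 stood far below the other libraries of its group. Without that replicate the value was −1.38 (adjusted p = 0.0073).

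The abundant chains of types I and III did not pass edgeR's test in either sex. In females, *Col3a1* was at 8168, 4809 and 7153 in wild type and 5999, 8774 and 6896 in knockout (0.11 ± 0.24, adjusted p = 0.77). *Col1a1* (0.25 ± 0.19, adjusted p = 0.35) and *Col1a2* (0.03 ± 0.19, adjusted p = 0.91) likewise overlapped. In males, *Col3a1* was at 6670, 7630 and 7106 in wild type and 8234, 16600 and 12610 in knockout, with no overlap (0.81 ± 0.24, adjusted p = 0.21). DESeq2 called it (0.83, adjusted p = 0.020), as did edgeR without the low-count filter (0.81, adjusted p = 0.025). *Col1a1* gave 0.51 ± 0.19 (adjusted p = 0.32) and *Col1a2* 0.55 ± 0.19 (adjusted p = 0.27). The male knockout libraries were far apart in these genes: replicate 2 was the highest and replicate 1 the lowest of its group in 9 of 9 fibrillar genes, and in 24 and 24 of all 37 collagen genes. Without replicate 1, 7 collagen genes were called in males: *Col5a3*, *Col1a2* (0.73), *Col3a1* (1.04), *Col5a1* (0.83), *Col5a2* (0.91), *Col6a2* (0.80) and *Col6a3* (0.81). The share of all genes called in that fit is not given, so the count of 7 has no background beside it.

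Markers of other cells were summed in the same libraries, and 0 of 6 adipocyte, 0 of 7 macrophage and 1 of 11 fibroblast markers were called between the male genotypes by edgeR. The summed normalized counts of 6 adipocyte markers were 133, 2858 and 1907 in the 3 male knockout libraries and 26.9, 35.3 and 52.8 in male wild type. In females they were 108, 438 and 3630 in wild type and 56.6, 229 and 23.6 in knockout. The 11 fibroblast markers summed to 13550, 23290 and 18170 in male knockout and 9310, 11520 and 9818 in male wild type, and the 1 called was *Dpt*. In females they summed to 15190, 10710 and 14430 in wild type and 10300, 16980 and 12860 in knockout, with 0 of 11 called by edgeR, beside 36.9% of all genes. The 7 macrophage markers reached 6284, 11660 and 10970 in male knockout against 4610, 5508 and 5581 in male wild type. Male knockout replicate 1, with the lowest *Col5a3* of its group (471), was above all male wild-type libraries in the adipocyte, fibroblast and macrophage sums. Female knockout replicates 1 and 3, at 679 and 824 for *Col5a3*, were below all female wild-type libraries in the adipocyte sum. Female knockout replicate 2, with the highest *Col5a3* of its group, was at 229 in that sum, above female wild-type replicate 1 at 108.

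In knockout females, where most of the genotype calls lay, 3 of 6 adipocyte, 3 of 7 macrophage, 4 of 7 myoepithelial and basal and 3 of 7 acinar markers were lower and 0 of each were higher, and 2 of 6 granular convoluted tubule markers were higher, beside 19.3% of all genes lower and 17.6% higher. The macrophage sums were 15830, 5496 and 7862 in wild-type and 4604, 7607 and 5769 in knockout females. With male knockout replicates 2 and 3 left out, an alternative chosen after seeing the data, the male difference of *Col5a3* was 1.33. That fit holds 1 male knockout library, assumed to vary like the other groups, so its calls are not counted. The part of these cells in the values of *Col5a3* and of the other collagen genes was not tested.

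Of the basement membrane collagens, *Col7a1* alone was called in the genotype comparison. It encodes type VII collagen, which forms the anchoring fibrils that tie the epithelial basement membrane to the stroma (chr9:108782647-108813943, plus strand). It was at 1176, 1371 and 1055 in wild-type females and at 3144, 1842 and 3041 in knockout females, so every knockout library was higher (1.16 ± 0.23, 2.23-fold, adjusted p = 0.0023). In males it was at 1133, 722 and 776 in wild type and 779, 537 and 488 in knockout, which overlapped (−0.55 ± 0.23, adjusted p = 0.39). The effects of the sexes differed by 1.70 ± 0.33 (adjusted p = 0.0054). This call of the interaction was kept under all 9 alternatives of scaling, filter, test and block. It was also kept in all 12 fits without 1 library (1.47 to 1.92). Without male knockout replicates 2 and 3 together the interaction was 1.31, in a fit whose calls are not counted.

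None of the 6 type IV chains was called between genotypes in either sex. Their log2 fold changes ran from −0.14 (*Col4a2*) to 0.38 (*Col4a6*) in females and from −0.18 (*Col4a4*) to 0.22 (*Col4a3*) in males. *Col4a6* came nearest to a call, at 155, 197 and 194 in wild-type females and 233, 232 and 248 in knockout females (0.38 ± 0.15, adjusted p = 0.068). Its groups did not overlap, and it was called with upper-quartile normalization (0.49, adjusted p = 0.023). *Col4a4* was at −0.13 ± 0.17 in females (adjusted p = 0.58) and, without female knockout replicate 2, at −0.42 (adjusted p = 0.036). *Col15a1* and *Col18a1*, whose C-terminal fragments are known as restin and endostatin, and *Col17a1*, a transmembrane protein of hemidesmosomes, had differences between −0.19 and 0.27 and no call. The summed normalized counts of the 10 basement membrane genes lay between 12450 and 17890 in all 12 libraries.

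The minor collagens called in females were 4 FACITs, collagens that lie on the surface of fibrils. *Col20a1* was at 116, 126 and 145 in wild-type females and at 240.2, 205 and 330 in knockout females (1.00 ± 0.21, 2.005-fold, adjusted p = 0.0027). *Col9a3*, a chain of type IX, was at 56.2, 64.8 and 46.7 against 111, 98.0 and 104 (0.90 ± 0.23, adjusted p = 0.0081). *Col16a1* was at 261, 311 and 276 against 420.3, 364 and 385 (0.46 ± 0.12, adjusted p = 0.011). In all 3 the knockout libraries were higher without overlap. *Col12a1* went the other way, from 289, 239.9 and 317 in wild type to 148, 206 and 201 in knockout (−0.61 ± 0.20, adjusted p = 0.032).

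In males the same 4 FACITs had values of the opposite sign and no call: −0.49 ± 0.20 for *Col20a1*, −0.49 ± 0.23 for *Col9a3*, −0.23 ± 0.12 for *Col16a1* and 0.30 ± 0.20 for *Col12a1*. *Col20a1* was at 311, 198 and 244 among male wild types and 172, 182 and 183 among male knockouts, and *Col9a3* at 43.8, 50.1 and 56.9 against 37.3, 34.7 and 35.4. The knockout males lay below the wild-type males in both. The interaction was called for each of the 4, at 1.49 ± 0.29 for *Col20a1* (adjusted p = 0.0054), 1.38 ± 0.32 for *Col9a3* (0.011), 0.69 ± 0.17 for *Col16a1* (0.014) and −0.91 ± 0.28 for *Col12a1* (0.034).

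Single libraries or the scaling decided some of these calls. In females *Col12a1* was not called without knockout replicate 1 (−0.52, adjusted p = 0.10) or without wild-type replicate 3 (−0.55, adjusted p = 0.095), nor with the authors' factors (−0.57, adjusted p = 0.082) or upper-quartile normalization (−0.50, adjusted p = 0.075). *Col16a1* was not called in females without knockout replicate 1 (0.36, adjusted p = 0.066) or wild-type replicate 1 (0.35, adjusted p = 0.053), and its interaction was 0.56 (adjusted p = 0.051) without knockout replicate 1 and 0.54 (adjusted p = 0.17) with the authors' factors. The interaction of *Col12a1* was lost without any of 6 libraries: female knockout replicate 1, female wild-type replicate 3, male knockout replicates 2 and 3 and male wild-type replicates 1 and 2, with values from −0.73 to −0.94, and with upper-quartile normalization (−0.83, adjusted p = 0.052). Of the 44 collagen genes, 27 share exon bases with another gene, among them *Col18a1* with *Slc19a1* (896 bases), *Col4a1* with *Col4a2* (311 bases), whose ratio is compared further on, and *Col4a3* with *Col4a4* (159 bases). Exon bases of *Col9a3* overlap *Tcfl5* (535 bases), and *Col20a1* shares 91 exon bases with a long non-coding RNA on its own strand. How strand was treated in the counting is not given in the sources used here, so reads of such shared bases cannot be assigned.

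The type VI chains, which form beaded filaments between cells and fibrils, and the remaining minor collagens had no call in either sex by edgeR with all libraries and the filter. *Col6a3* was nearest in males, at 2060, 1995 and 2336 in wild type and 2344, 4096 and 3353 in knockout (0.62 ± 0.20, adjusted p = 0.23; 0.62 and 0.049 without the low-count filter); the groups did not overlap, with the highest wild-type library just below the lowest knockout library. In females it was at −0.09 ± 0.20 (adjusted p = 0.76). In females *Col6a5* was called without 1 library (0.72 ± 0.32 with all libraries, adjusted p = 0.095; 0.92, adjusted p = 0.048, without female knockout replicate 1). *Col6a4*, at 0 to 10 counts before normalization, was tested only in some alternatives. Its interaction was called without the low-count filter (6.32, adjusted p = 0.046) and in some fits without 1 library, such as female knockout replicate 1 (6.85, adjusted p = 0.029). *Col25a1*, a transmembrane collagen at 39.4, 0 and 3.01 in wild-type females and 9.24, 29.1 and 22.3 in knockout females, gave 0.47 ± 1.00 (adjusted p = 0.75) and, without female wild-type replicate 1, 3.67 (adjusted p = 0.029).

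Males and females were compared within each genotype, as the design has both sexes. In wild type, 15 of 37 collagen genes differed, 10 higher and 5 lower in males, against 36.5% of all genes (20.5% higher and 16.0% lower). With RLE or upper-quartile normalization the split was 8 and 7, and with the authors' factors 6 and 6. In knockout, 24 of 37 differed, 12 higher and 12 lower, against 43.5% of all genes (23.2% and 20.3%). The split was 9 higher and 13 lower under upper-quartile normalization and 14 and 8 without the low-count filter. The median log2 fold change over all genes in knockout was −0.18 under upper-quartile normalization, beside −0.02 in the main fit. The share of all genes called is not given for the alternative fits of either genotype. The wild-type and knockout comparisons share no library. 11 genes were called with the same direction in both, which was 73.3% of the wild-type calls and 45.8% of the knockout calls, beside 49.5% and 41.5% over all genes tested. Of these, *Col1a1*, *Col4a1*, *Col4a2*, *Col4a3*, *Col8a1* and *Col8a2* were higher in males, and *Col11a1*, *Col4a5*, *Col6a5*, *Col6a6* and *Col23a1* were lower. *Col16a1* and *Col20a1* were called in opposite directions, and *Col11a2* and *Col17a1* in wild type alone. No overlap between the sexes was seen for 20 genes in wild type (47.6% of all genes) and 22 in knockout (54.8%).

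**Figure D4:**
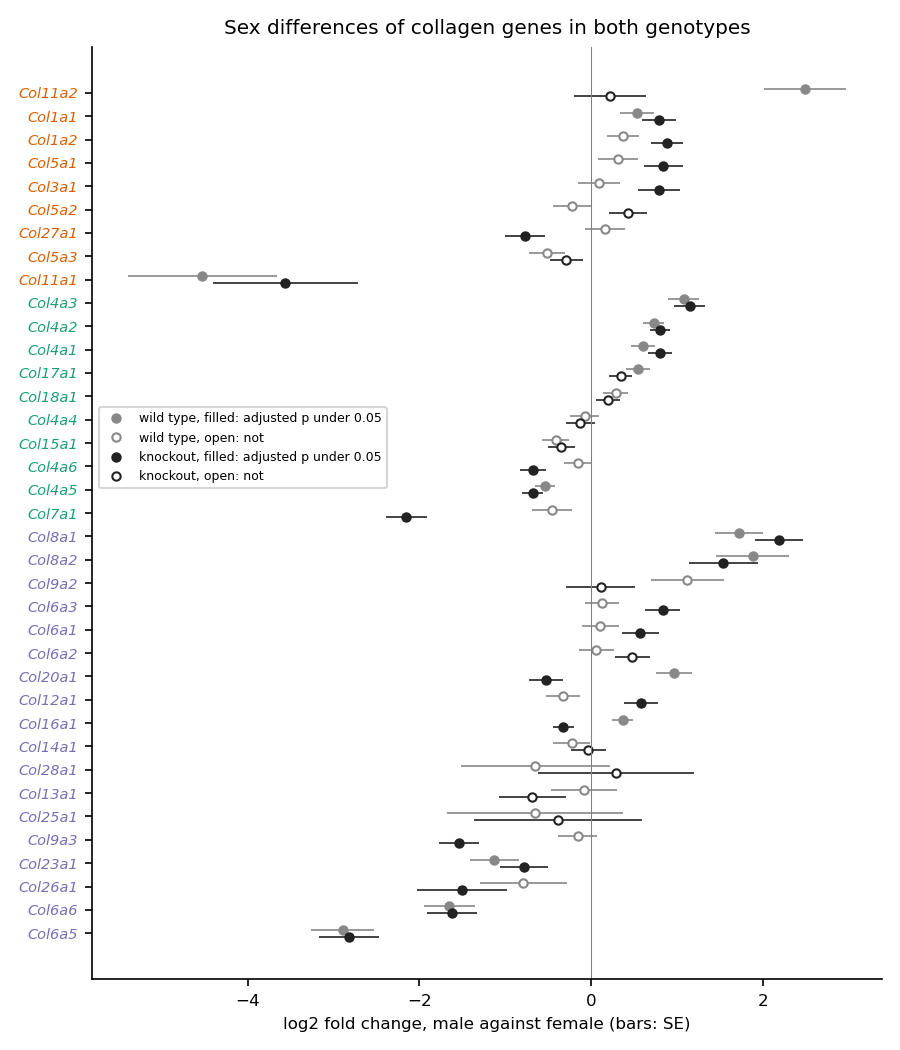
Log2 fold change of males against females for the 37 tested collagen genes, with SE bars; grey points are wild type and black points knockout, filled where the adjusted p was under 0.05, and gene names are coloured by class. *Col11a1* lies farthest left (−4.53 in wild type and −3.56 in knockout), and *Col8a1* and *Col8a2* lie right of 1 in both genotypes.

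The 6 type IV chains fell into different sex patterns by chain. *Col4a1* and *Col4a2* encode the α1 and α2 chains of the network found in nearly every basement membrane. *Col4a1* was at 3632, 4724 and 4729 in wild-type females and 5964, 6975 and 6992 in wild-type males (0.61 ± 0.14, adjusted p = 0.0044), and at 4068, 4625 and 3585 in knockout females and 6300, 7216 and 7898 in knockout males (0.80 ± 0.14, adjusted p = 0.00057). *Col4a2* rose with it, by 0.73 ± 0.12 in wild type (adjusted p = 0.00041) and 0.80 ± 0.12 in knockout (adjusted p = 0.00018). All 6 male libraries were above all 6 female libraries in both genes. *Col4a3*, whose product joins α4 and α5 in a more specialised network, was at 114, 127 and 124 in wild-type females and 262, 252 and 253 in wild-type males, and at 117, 170 and 115 against 244, 349 and 299.6 in knockout (1.08 ± 0.18, adjusted p = 0.00054; 1.15 ± 0.18, adjusted p = 0.00026).

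*Col4a4*, which shares its start region with *Col4a3*, was not called between the sexes (−0.08 ± 0.17 in wild type, adjusted p = 0.75; −0.13 ± 0.17 in knockout, adjusted p = 0.57). *Col4a5* was lower in males, at 633, 720.2 and 651 against 884, 961 and 1070 in wild type and at 645, 648 and 614 against 956, 1212 and 889.8 in knockout (−0.54 ± 0.12, adjusted p = 0.0037; −0.68 ± 0.12, adjusted p = 0.00063). *Col4a6* was lower in knockout males, at 163, 156 and 127 against 233, 232 and 248 (−0.68 ± 0.15, adjusted p = 0.0035). In wild type it was at 162, 152 and 175 against 155, 197 and 194, with overlap (−0.16 ± 0.15, adjusted p = 0.45). The interaction, which is also the difference between these sex effects, was not called for any type IV chain.

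**Figure D5:**
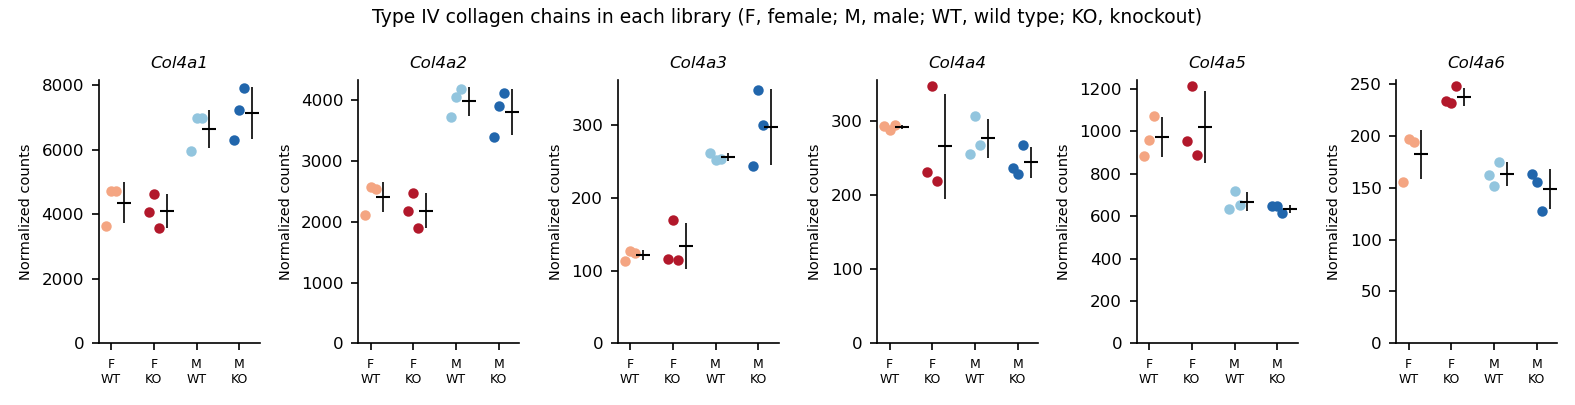
Normalized counts of the 6 type IV chains, with 1 point per library and the mean ± SD of each group beside it (n = 3 per group). *Col4a1*, *Col4a2* and *Col4a3* are higher in all male libraries, *Col4a5* is lower in all male libraries, and *Col4a4* overlaps between the sexes.

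The type IV genes are arranged in head-to-head pairs. On chromosome 8 the canonical transcripts of *Col4a1* and *Col4a2* overlap at their 5′ ends, with starts 317 bases apart, and on chromosome 1 those of *Col4a3* and *Col4a4* overlap with starts 103 bases apart. On chromosome X, *Col4a5* and *Col4a6* start 1282 bases apart. The 250 bases before each of the X-linked starts are shown because both genes were lower in knockout males; they are from GRCm39 (*Col4a5*, chrX:140258104-140258353, plus strand; *Col4a6*, chrX:140257073-140257322, minus strand), 5′ to 3′ on the strand of the gene, with capitals for a CCAAT box or a GC box as above.
Col4a5: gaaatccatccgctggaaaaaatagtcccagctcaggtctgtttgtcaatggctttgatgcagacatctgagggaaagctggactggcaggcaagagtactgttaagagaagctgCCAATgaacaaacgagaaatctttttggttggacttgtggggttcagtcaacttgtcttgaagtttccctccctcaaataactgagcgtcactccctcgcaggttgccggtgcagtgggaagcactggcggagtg
Col4a6: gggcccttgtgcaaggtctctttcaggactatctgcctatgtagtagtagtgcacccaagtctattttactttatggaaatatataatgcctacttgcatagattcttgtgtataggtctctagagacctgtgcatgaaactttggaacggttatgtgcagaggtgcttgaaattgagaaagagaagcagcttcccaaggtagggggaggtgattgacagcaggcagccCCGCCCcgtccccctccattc
The *Col4a5* window held 1 CCAAT box at 49.6% GC and the *Col4a6* window 1 GC box at 47.6% GC. AGAACA, a hexamer found in steroid receptor half-sites, or its reverse complement TGTTCT was in neither. It stood in 14.3% of all windows and in 5 of the 44 collagen windows.

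Of the other basement membrane genes, *Col7a1* was lower in knockout males than in knockout females, by 4.45-fold (−2.15 ± 0.24, adjusted p = 1.9e-05). In wild type the sexes overlapped (−0.45 ± 0.23, adjusted p = 0.14). *Col17a1* was higher in wild-type males, at 981, 873 and 1010 against 688, 578 and 696 (0.55 ± 0.14, adjusted p = 0.0070), and in knockout the difference was 0.35 ± 0.14 (adjusted p = 0.054; 0.49, adjusted p = 0.011, without male knockout replicate 3). *Col15a1* gave −0.41 ± 0.16 in wild type (adjusted p = 0.056; −0.46 and 0.020 with DESeq2) and −0.35 ± 0.16 in knockout (adjusted p = 0.091; −0.51 and 0.023 with upper-quartile normalization). *Col18a1* gave 0.20 ± 0.14 in knockout (adjusted p = 0.29; 0.45 and 0.0091 without female knockout replicate 2).

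The fibrillar collagens split by chain as well. *Col11a1* was lower in males, at 30.8, 14.8 and 33.0 against 34.9, 717 and 1076 in wild type (−4.53 ± 0.86, 23.0-fold lower, adjusted p = 0.0013) and at 22.4, 45.0 and 23.6 against 329, 507 and 238 in knockout (−3.56 ± 0.84, 11.8-fold lower, adjusted p = 0.0045). The lowest wild-type female library was just above the highest wild-type male. *Col11a2*, in contrast, was higher in wild-type males than in wild-type females (2.49 ± 0.48, adjusted p = 0.0013), though with the authors' factors by 0.93 (adjusted p = 0.49), and was not called in knockout (0.22 ± 0.42, adjusted p = 0.70).

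Of the type I chains, *Col1a1* was at 4605, 4019 and 4958 in wild-type males against 3796, 2473 and 3121 in wild-type females (0.53 ± 0.19, adjusted p = 0.047). This call was lost under 5 alternatives of scaling and block and without any of 8 libraries, with the lowest value without female wild-type replicate 2 (0.37, adjusted p = 0.21). In knockout, *Col1a1* (0.79 ± 0.19, adjusted p = 0.0055), *Col1a2* (0.88 ± 0.19, adjusted p = 0.0023), *Col3a1* (0.79 ± 0.24, adjusted p = 0.019) and *Col5a1* (0.84 ± 0.23, adjusted p = 0.0098) were higher in males and *Col27a1* was lower (−0.77 ± 0.23, adjusted p = 0.018). Without male knockout replicate 2, *Col3a1* was at 0.54 (adjusted p = 0.097; 0.63 and 0.054 with upper-quartile normalization) and *Col5a1* at 0.64 (adjusted p = 0.051), and *Col27a1* was at −0.51 (adjusted p = 0.15) without female knockout replicate 3 and −0.54 (adjusted p = 0.064) without male knockout replicate 1. *Col5a3* was lower in wild-type males without a call (−0.51 ± 0.21, adjusted p = 0.069), and DESeq2 called it (−0.56, adjusted p = 0.035). Leaving out male knockout replicates 2 and 3 together left 1 library in that group. The differences in knockout were then 0.35 for *Col1a1*, 0.45 for *Col1a2*, 0.20 for *Col3a1* and 0.07 for *Col5a1*.

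The minor collagens also split by chain. *Col8a1* and *Col8a2* encode the short chains of the type VIII network, known from vessels and from the membrane behind the cornea. *Col8a1* was at 67.5, 40.2 and 57.3 in wild-type females and 189.9, 122 and 237 in wild-type males, and at 65.8, 56.3 and 57.0 against 206, 331 and 278 in knockout (1.73 ± 0.28, adjusted p = 0.00038; 2.18 ± 0.28, adjusted p = 5e-05). *Col8a2* was at 15.7, 28.5 and 12.1 against 53.8, 64.1 and 91.5 in wild type and at 19.6, 49.5 and 22.3 against 105, 93.7 and 69.9 in knockout (1.88 ± 0.42, adjusted p = 0.0039; 1.54 ± 0.40, adjusted p = 0.0078). With the authors' factors the wild-type value was 1.14 (adjusted p = 0.087). All male libraries were above all female libraries in both genes.

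*Col6a5* and *Col6a6*, type VI chains that can take the place of α3, were lower in males. *Col6a5* was at 74.2, 80.4 and 110 in wild-type females and 16.9, 9.85 and 8.25 in wild-type males, and at 88.9, 167 and 178.5 against 16.8, 22.5 and 21.8 in knockout (7.44-fold lower, adjusted p = 4.9e-05; 7.07-fold lower, adjusted p = 4.2e-05). *Col6a6* was at 355, 337 and 417 against 133, 117 and 103 in wild type and at 388, 605 and 525 against 82.1, 234 and 178 in knockout (3.14-fold lower, adjusted p = 0.00078; 3.07-fold lower, adjusted p = 0.00069). No male library reached a female library in either gene. The classical chains went the other way where they were called: *Col6a1* (0.57 ± 0.22, adjusted p = 0.048) and *Col6a3* (0.83 ± 0.20, adjusted p = 0.0049) were higher in knockout males, and *Col6a1* lost its call under 5 of the other settings and without any of 7 libraries (0.33, adjusted p = 0.24, without male knockout replicate 2). In wild type all 3 classical chains lay between 0.06 and 0.13 with no call.

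*Col23a1*, a transmembrane collagen, was at 52.3, 37.8 and 50.3 in wild-type males against 65.2, 126 and 118 in wild-type females (−1.13 ± 0.29, adjusted p = 0.0079), and gave −0.78 ± 0.28 in knockout (adjusted p = 0.038; −0.53, adjusted p = 0.20, without female knockout replicate 2). *Col9a3* was lower in knockout males (−1.54 ± 0.23, adjusted p = 0.00017) and not called in wild type (−0.16 ± 0.23, adjusted p = 0.62). *Col20a1* and *Col16a1* were higher in wild-type males (0.97 ± 0.21, adjusted p = 0.0028; 0.37 ± 0.12, adjusted p = 0.031) and lower in knockout males (−0.53 ± 0.20, adjusted p = 0.04985; −0.32 ± 0.12, adjusted p = 0.045). The knockout calls of both and the wild-type call of *Col16a1* were lost under several settings and left-out libraries, to −0.25 (adjusted p = 0.38) for *Col20a1* without female knockout replicate 3, −0.21 (adjusted p = 0.24) for *Col16a1* in knockout without female knockout replicate 1 and 0.28 (adjusted p = 0.12) for *Col16a1* in wild type without female wild-type replicate 1. *Col12a1* was higher in knockout males (0.58 ± 0.20, adjusted p = 0.032; 0.40, adjusted p = 0.15, without male knockout replicate 2; 0.42, adjusted p = 0.11, with upper-quartile normalization). *Col26a1*, at 6.53 to 40.8 normalized counts, was lower in knockout males (−1.50 ± 0.52, adjusted p = 0.034) but 0.26 higher with the authors' factors (adjusted p = 0.79), and −0.97 (adjusted p = 0.20) without female knockout replicate 2.

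Cell type markers were counted in the same comparisons, where 20.5% of all genes were higher and 16.0% lower for wild type, and 23.2% and 20.3% for knockout. The 8 myoepithelial and basal markers, of which 7 were tested, summed to 8429 to 11110 normalized counts in wild-type females and 21380 to 25720 in wild-type males, and to 6820 to 7545 against 16650 to 23440 in knockout, with 5 of 7 higher and 1 lower in wild type and 6 of 7 higher in knockout. The 9 endothelial markers summed to 2972 to 3936 in wild-type females and 2321 to 3138 in wild-type males, and to 2869 to 3113 against 1881 to 2403 in knockout, with 5 and 6 lower. The 11 fibroblast markers had 5 lower in wild-type males and 2 higher in knockout males. Of the 6 granular convoluted tubule markers 5 were higher and 1 lower in males of both genotypes, with median log2 differences of 6.23 and 5.70, and of the 7 acinar markers 5 were lower in both. The adipocyte markers had 5 of 6 lower in wild-type males and 5 higher in knockout males, and the macrophage markers 5 of 7 lower and 3 higher. Of 8 pericyte and smooth muscle markers 1 was higher and 2 lower in wild type and 3 and 2 in knockout, and of 6 Schwann cell markers 1 and 2, and 1 and 1. The 1 tested cartilage and bone marker, *Comp*, was higher in males (2.62 and 2.07), and of the 2 tested skeletal muscle markers *Acta1* was higher (4.06 and 7.47) and *Ckm* lower (−1.70 and −1.19). Their part in the sex differences of the collagen genes was not tested.

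Other chain ratios were compared in the same family of 16 tests. The ratio of *Col4a1* to *Col4a2* counts was higher in knockout by 0.11 on the log2 scale (exact permutation p = 0.01, adjusted p = 0.04) and that of *Col5a1* to *Col5a2* was higher in males by 0.45 (exact permutation p = 0.01, adjusted p = 0.04). With the authors' normalized counts these were 0.02 (adjusted p = 0.81) and 0.39 (adjusted p = 0.13). The first was not called without any of 8 libraries (adjusted p up to 0.12) and the second without any of 7 (adjusted p up to 0.08). The ratio of *Col1a1* to *Col1a2*, which together form type I collagen, lay between 0.783 and 1.05 in all 12 libraries and differed by 0.09 between genotypes and 0.03 between sexes (exact permutation, adjusted p = 0.36 and 0.69). *Col6a1* to *Col6a2* (−0.05 and 0.08), *Col6a3* to *Col6a1* (−0.04 and 0.14), *Col3a1* to *Col1a1* (0.07 and −0.22) and *Col1a1* to *Col4a1* (0.36 and −0.05) also gave no adjusted p under 0.05 for genotype or for sex.

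Genes that process, cross-link, bind or degrade collagen were counted from fixed lists, and whether a list's share differs from that over all genes was not tested. In knockout females, where 17.6% of all genes were higher and 19.3% lower, 1 of 24 tested biosynthesis genes was higher, *Bmp1*, a procollagen C-proteinase (0.83 ± 0.15, adjusted p = 0.0011). 4 were lower, among them *P4hb*, a subunit of prolyl 4-hydroxylase (−0.81 ± 0.15, adjusted p = 0.0013), *Mia3*, which takes part in loading procollagen for export (−0.57 ± 0.13, adjusted p = 0.0040), and *Ppib*, a prolyl isomerase (−0.51 ± 0.12, adjusted p = 0.0056). Of 7 cross-linking genes, 2 were lower, *Loxl2* (−0.59 ± 0.18, adjusted p = 0.021) and *Pxdn*, which cross-links type IV (−0.31 ± 0.10, adjusted p = 0.027). Of 15 basement membrane partners 4 were higher and 0 lower, led by the laminin chain *Lama5* (0.87 ± 0.14, adjusted p = 0.00061) and *Agrn*, a heparan sulfate proteoglycan (0.695 ± 0.14, adjusted p = 0.0029). Of 14 fibril regulators 0 were higher and 1 lower, of 9 receptors 1 was higher and 2 lower, and of 15 turnover genes 2 were higher and 1 lower. Among these, the collagen receptor chain *Itga10* was higher (1.495 ± 0.33, adjusted p = 0.0040) and *Itgb1* lower (−0.64 ± 0.13, adjusted p = 0.0027), and the protease *Mmp9* was higher (1.07 ± 0.26, adjusted p = 0.0061). In knockout males none of these 6 lists had a called gene by edgeR, beside 0.235% of all genes. The interaction was called for *Lama5* (1.11 ± 0.19, adjusted p = 0.0041), *Agrn* (1.05 ± 0.20, adjusted p = 0.0055), *Bmp1* (0.90 ± 0.20, adjusted p = 0.0091) and *P4ha1* (−0.93 ± 0.23, adjusted p = 0.015), among others.

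Between the sexes, the lists stand beside 20.5% of all genes higher and 16.0% lower in males of wild type, and 23.2% and 20.3% for knockout. Of the 15 partners of type IV collagen in the basement membrane, 7 were higher and 2 lower in wild-type males, and 9 higher and 3 lower in knockout males. The laminin chain *Lamb2* was higher by 1.45 ± 0.125 (adjusted p = 2e-06) and 1.37 ± 0.12 (adjusted p = 3.5e-06). *Nid2*, which links laminin to type IV, was lower by −0.62 ± 0.12 (adjusted p = 0.0018) and −0.68 ± 0.12 (adjusted p = 0.00080). Of the fibril regulators 6 were higher and 1 lower in wild type and 7 higher and 0 lower in knockout, led by *Postn*, periostin (2.215 ± 0.17, adjusted p = 8.6e-07; 2.21 ± 0.17, adjusted p = 1e-06). Biosynthesis genes split 5 higher and 4 lower in wild type and 8 and 2 in knockout, with *Colgalt1*, a collagen galactosyltransferase, higher in both (1.24 ± 0.11, adjusted p = 1.9e-06; 1.21 ± 0.11, adjusted p = 2.5e-06) and *Tll1* lower in both (−5.25 ± 0.64, adjusted p = 3.7e-05; −5.35 ± 0.64, adjusted p = 3.4e-05). Cross-linking genes split 2 and 1 in wild type and 3 and 1 in knockout, with *Loxl1* and *Loxl2* higher in both. Receptors split 1 and 2 in wild type and 2 and 1 in knockout, and turnover genes 3 and 0 in wild type and 4 and 0 in knockout, the latter led by the inhibitor *Timp3* (1.24 ± 0.16, adjusted p = 6e-05; 1.28 ± 0.16, adjusted p = 4.4e-05).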

How the data were processed

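Whole SMGs of 12 mice were measured by paired-end RNA-sequencing of ribosomal RNA-depleted, stranded total RNA, although the labels call the molecule polyA RNA. The authors estimated counts with Salmon 1.10.1 against Gencode transcripts (GRCm39), and the deposited estimated counts per gene are not normalized. They were rounded to whole numbers, and 78.7% were whole already. A second deposited table holds normalized counts (a signal), which the authors divided by factors that differ between genes and libraries, made in a step not given in the sources used here. It served as an alternative only, through the factors it implies. All columns were mapped to samples, so 0 were left over.

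Gene names, types and positions came from a Gencode annotation of GRCm39, which held 55563 of the 56065 deposited IDs. Counts were fitted in edgeR 4.0.16 (R 4.3.3; limma 3.58.1) with TMM normalization, filterByExpr (17893 genes kept), 1 mean per group over all 12 libraries and the quasi-likelihood test, in 5 contrasts: genotype within each sex, their difference, and sex within each genotype. Adjusted p-values are Benjamini-Hochberg over all genes tested, with a threshold of 0.05. SEs were taken from the fold change and its F value. Normalized counts are TMM counts per library brought to the mean effective library size. Levels per kb use the length of the Ensembl canonical transcript. Ratios of 2 chains used log2 with a pseudocount of 0.5 in an exact permutation test within strata. The scripts were tested on simulated data. Figures used Python 3.11.15 and matplotlib 3.10.9.

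Total counts were 47032175 to 67882207 per library, and 3 counts, taken as a floor, correspond to 0.0442 to 0.0638 CPM. The replicates were separate mice.

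Genes named are every collagen gene called in any of the 5 contrasts, the 3 most abundant per length in each class and *Col5a3*. A few others were named after their values were seen, because a left-out library or a setting changed their call or because they complete a chain family. From each list of other genes, at most the 3 called genes with the smallest adjusted p per contrast and direction are named. The collagen genes, the lists and the tests were chosen with earlier results of these data known. Alternatives were RLE, upper-quartile and the authors' factors, library sizes from protein-coding genes, the 20 most abundant genes left out, no filter or at least 10 counts in every library, DESeq2 1.42.0, only the groups compared, a replicate block and each library left out. Leaving out male knockout replicates 2 and 3 together was added after seeing the data. Motifs were searched on both strands of the 250 bases before each canonical start. The other deposited genes enter only the fit and the shares over all genes.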

Additional observations from a re-analysis of the deposited data

Results flagged for a closer look

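For 6 collagen genes the genotype effect differed between the sexes by the interaction test of edgeR. The effect in females minus that in males was 1.70 for *Col7a1* (adjusted p = 0.0054), 1.49 for *Col20a1* (0.0054), 1.38 for *Col9a3* (0.011), 2.27 for *Col11a2* (0.022), 0.69 for *Col16a1* (0.014) and −0.91 for *Col12a1* (0.034). For *Col7a1*, *Col20a1*, *Col9a3* and *Col16a1* the estimate was above 0 in females, where it was called, and below 0 in males, where it was not. For *Col12a1* the signs were the opposite. *Col11a2* was above 0 in both sexes, with 2.48 in females and 0.21 in males. The called interactions of *Col11a2*, *Col12a1* and *Col16a1* were lost when single libraries were left out, those of *Col11a2* and *Col16a1* also with the authors' factors (adjusted p = 0.24 and 0.17) and that of *Col12a1* with upper-quartile normalization (0.052). Of the cell type markers, 6 of 6 adipocyte, 4 of 7 macrophage and 4 of 11 fibroblast markers had a negative interaction call. In these lists 0 were positive, beside 13.4% of all genes positive and 12.4% negative, and no other marker list had a call. The part of these cells in the 6 collagen interactions was not tested.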

How the results depend on the processing

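Of the 54 calls of collagen genes over the 5 contrasts, 37 were kept in every fit without 1 library and 17 were lost at least once. The authors' factors kept 42 and reversed 1, upper-quartile normalization kept 47, no low-count filter 49, the 20 most abundant genes left out 50, and DESeq2, RLE and protein-coding library sizes 51 each. The reversed call was *Col26a1* between the sexes in knockout, at 0.26 with the authors' factors. The share of all genes called is not given for any alternative fit. Counts of called genes in those fits therefore have no background beside them. In knockout males the count of called genes was 1, with 2 by DESeq2, 4 without the filter and 1 to 7 when 1 library was left out (7 without male knockout replicate 1). The interaction count was 6, with 9 without the filter, 0 without both libraries and 4 to 12 when 1 was left out (12 without male knockout replicate 1). The sex count in knockout was 24, and 12 without both libraries, where the interaction of *Col5a3* was 0.24 rather than −0.23; fewer libraries were then fitted, and the cause was not tested. The *Col5a1* to *Col5a2* difference of the sexes was 0.39 with the authors' normalized counts and 0.37 to 0.51 when 1 library was left out, the *Col4a1* to *Col4a2* difference of the genotypes was 0.023 and 0.093 to 0.124, and the *Col1a1* to *Col4a1* difference was 0.25 to 0.50, passing the test without female wild-type replicate 1 (adjusted p = 0.04). Upper-quartile normalization moved the median of all genes to 0.13 in females and −0.18 between the sexes in knockout.

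The replicate numbers did not pair the samples, since the deviations of same-numbered libraries correlated at −0.12 to 0.08 between the genotypes and at −0.05 to 0.26 between the sexes (0.26 for replicate 1 of wild type). With the replicate number as a block, 8, 1, 6, 16 and 21 genes were called in females, males, the interaction, wild type and knockout. The block left the ratio differences at 1.43 and −0.94 (*Col5a3* to *Col5a1*, genotype and sex), 0.11 (*Col4a1* to *Col4a2*) and 0.45 (*Col5a1* to *Col5a2*), but its 64 arrangements cannot pass after adjustment. With 3 libraries a group, *Col26a1*, at 6.53 to 40.8 normalized counts, had SEs of 0.50 to 0.53 between groups, and *Col11a1* had SEs of 0.71 to 0.92.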
